A study of Mus musculus with 8 samples.

Results

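The p53 target genes described here are 33 genes named as transcriptional targets of the tumour suppressor p53, taken by symbol from both deposited tables. All 33 were found in both, among 29647 genes listed for untreated cells and 29246 listed for cells from mice given 5-aza, of which 26200 were shared. The rule that picked them used symbols and no measured value, but the list was chosen with earlier results of these data known. The cells were hair matrix keratinocytes, which divide at the follicle base and build the hair, sorted from mouse skin at postnatal day 4.5 for RNA sequencing. The 4 groups were wild type (WT) untreated, Tet2/Tet3 double knockout with Krt14-Cre (DKO) untreated, WT after 5-aza and DKO after 5-aza, with 2 libraries each. Mice given 5-aza, a cytosine analogue that inhibits DNA methyltransferases, received 50 µg under the skin at postnatal day 2.5. Krt14-Cre acts in cells of the Krt14-expressing epithelial lineage, so both dioxygenase genes are deleted there and not in the whole animal, and the labels do not say which alleles or Cre the WT mice carried. The labels do not tie the libraries of a group to different mice, and each p-value measures the spread between these libraries. In each untreated group Xist, the RNA of the inactive X, was high in replicate 1 (82.1 FPKM in WT and 74.4 in DKO) and low in replicate 2 (0.327 and 1.19), and the Y-linked Ddx3y the reverse (0.0155 and 0.0755 against 3.502 and 2.90), so these pairs held cells of different mice. After 5-aza both RNAs were present in every library, but their levels were parted by genotype. Ddx3y was at 1.24 and 0.917 FPKM in WT and 2.08 and 2.00 in DKO, and Xist at 16.9 and 23.1 in WT and 4.60 and 3.65 in DKO. In comparisons that use these libraries, a difference in the mix of sexes therefore cannot be told apart from genotype.

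p53, encoded by Trp53, is a transcription factor that is held low by the ubiquitin ligase Mdm2 and is stabilised after DNA damage, nucleotide shortage and other stresses. It binds a response element of paired decamers near its targets, which include brakes on the cell cycle (Cdkn1a), proteins that open the mitochondrial path to cell death (Bax, Bbc3, Pmaip1), repair factors and its own inhibitor Mdm2. In stratified epithelium the related factor p63 occupies some of the same elements, and Perp, a desmosome-associated membrane protein, is a known target of both. DNA that has incorporated 5-aza traps DNA methyltransferases, and cells can answer such adducts with a damage response.

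Promoter windows from RefSeq on build GRCm38.p6, each running from 250 bases before to 50 bases after an annotated start, were held for 25 of the 33 members and gave 36 windows. The p53 consensus response element was searched as 2 decamers in tandem with no spacer, requiring the core C and G of each decamer and allowing at most 3 of the 20 positions to differ from the consensus. The consensus reads the same on both strands. It was found in 7 of the 36 windows (19.4%), against 1.38% of 32851 windows of the same length over all genes. The 7 windows belonged to 6 members, printed here because they hold the letters that the factor of this gene group is known to read. Each is shown 5′ to 3′ on the strand of its gene, with the 20 bases of the match in capitals.
Cdkn1a: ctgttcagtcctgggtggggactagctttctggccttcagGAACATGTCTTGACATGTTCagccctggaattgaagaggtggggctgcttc
Ccng1: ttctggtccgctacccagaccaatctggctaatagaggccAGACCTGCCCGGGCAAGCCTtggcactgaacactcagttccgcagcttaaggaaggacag
Gtse1: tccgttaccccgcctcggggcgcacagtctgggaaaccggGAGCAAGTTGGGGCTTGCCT
Bbc3: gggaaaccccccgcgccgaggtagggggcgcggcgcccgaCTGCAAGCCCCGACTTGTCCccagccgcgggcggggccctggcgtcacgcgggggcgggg
Sesn1: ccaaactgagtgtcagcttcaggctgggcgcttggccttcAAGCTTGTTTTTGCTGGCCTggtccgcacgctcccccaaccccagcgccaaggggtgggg
Aen: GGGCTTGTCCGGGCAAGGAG
Positions are counted from the annotated start of each window, which need not be the main start of the gene. The Cdkn1a stretch is chr17:29090888-29090978 on the plus strand, and its match lay at positions -51 to -32 with 1 position off the consensus. The Ccng1 stretch is chr11:40755422-40755521 on the minus strand, with the match at -195 to -176 and 1 position off. The Gtse1 stretch is chr15:85859905-85859964 on the plus strand, its match also had 1 position off, and it spanned the start, from -1 to 18. The Bbc3 stretch (chr7:16309446-16309545, plus strand) and the Sesn1 stretch (chr10:41887226-41887325, plus strand) had 3 positions off, at -97 to -78 and -173 to -154. Both stretches lie inside the listed gene spans, which begin at 16308393 for Bbc3 and 41809935 for Sesn1. The Aen match (chr7:78895937-78895956, plus strand) also had 3 positions off, lay inside an annotated first exon and was counted in 2 windows. A match is a description of letters and was not measured as a bound site, and a window without one says only that these letters are not in it.

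Library totals were 19528602 to 22837436 reads in the untreated groups and 39493929 to 58353167 in the 5-aza groups, of which listed genes held 55.8% to 62.0% and 38.4% to 42.4%. Tet3 was at 0.614 and 0.573 of its WT mean in the DKO libraries of the untreated and 5-aza tables, and Tet2 at 0.809 and 0.826. The exonic positions removed by the deletion are not given, so these values check the labels in part only. The defining matrix genes Lef1, Shh and Cdh3 were present in all 8 libraries. The summed level of 11 keratinocyte markers was 551 to 1060 FPKM in untreated and 472 to 718 FPKM in 5-aza libraries. That list also holds Krt5 and Krt14, keratins of basal keratinocytes, so its sum does not measure matrix cells alone. The 5 fibroblast markers summed to 438 to 1305 FPKM in the untreated libraries and 53.6 to 133 after 5-aza, with the WT untreated replicate 1 lowest of its table. In bulk RNA, fewer cells of a type and less RNA per cell cannot be told apart.

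The members covered a wide range of levels. FPKM, a fragment count scaled to gene length and library total, depends on the gene length used, and the length in the deposited tables equalled the summed exons of all annotated transcripts in 97.6% and 97.5% of genes, so levels were compared between genes only after recomputing them per merged exonic length. On that scale Perp stood highest with a mean of 166 FPKM over the 4 groups, followed by Phlda3, a repressor of Akt signalling, with 20.96, the cyclin-dependent kinase inhibitor Cdkn1a with 14.5 and the mTOR inhibitor Ddit4 with 14.0. Mdm2 had 5.42, Bax 6.61 and the p53-inducible BH3-only gene Bbc3 2.15 FPKM. The ectodysplasin receptor Eda2r, with 0.441, and the stress cytokine Gdf15, with 0.137, stood lowest. Gdf15 rested on 1 to 19 reads a library and Eda2r on 18 to 214, while Perp had 6979 to 15872. As listed in the tables on build GRCm38, Phlda3 lies at chr1:135766119-135769136, Cd82 at chr2:93419111-93463140, Perp at chr10:18845020-18857073, Sesn2 at chr4:132492032-132510501 and Eda2r at chrX:97333840-97377216, on 5 different chromosomes. The deposited FPKM was used to compare the libraries for 1 gene at a time.

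In untreated cells most p53 targets had a higher mean in DKO than in WT, by small amounts, and no member passed the adjusted threshold of limma. The log2(FPKM + 1) difference, DKO minus WT, was positive for 27 of the 32 members tested, with a median of 0.09, beside 53.8% of all 17339 genes tested and a median of 0.01. The adjusted call was made for 0 members of 32 and for 0.00577% of all genes. At an unadjusted p under 0.05, 5 members (Cdkn1a, Phlda3, Cd82, Bbc3 and Sesn2) were higher in DKO, beside 6.72% of all genes, and 0 were lower, beside 4.73%. Both DKO libraries lay above both WT libraries for 13 of 32 members, beside 24.1% of all genes, and below both for 2, beside 19.3%. The authors' deposited table, from their DESeq2 test, called 3 members of 33 higher in DKO at an adjusted p under 0.05 (Phlda3, Cd82 and Perp). Beside them stood 0.793% of its 29647 listed genes, and 0 members were lower, beside 0.486%. Those shares include genes with too few reads for limma, so they are not on the same base as the limma shares. Gdf15 had too few reads to be tested with limma in this table. These counts depended on single libraries of both genotypes. DKO untreated replicate 2 was the highest of the 4 for 18 of the 33 members. Without it 21 of 32 members were positive, with a median of 0.05, beside 53.8% of all genes. WT untreated replicate 1 was the lowest for 17 members, and without it 22 were positive, beside 45.3% of all genes. How often each library was highest or lowest was not counted over all genes, so a shift of the whole library cannot be told apart from one of the members.

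**Figure D1:**
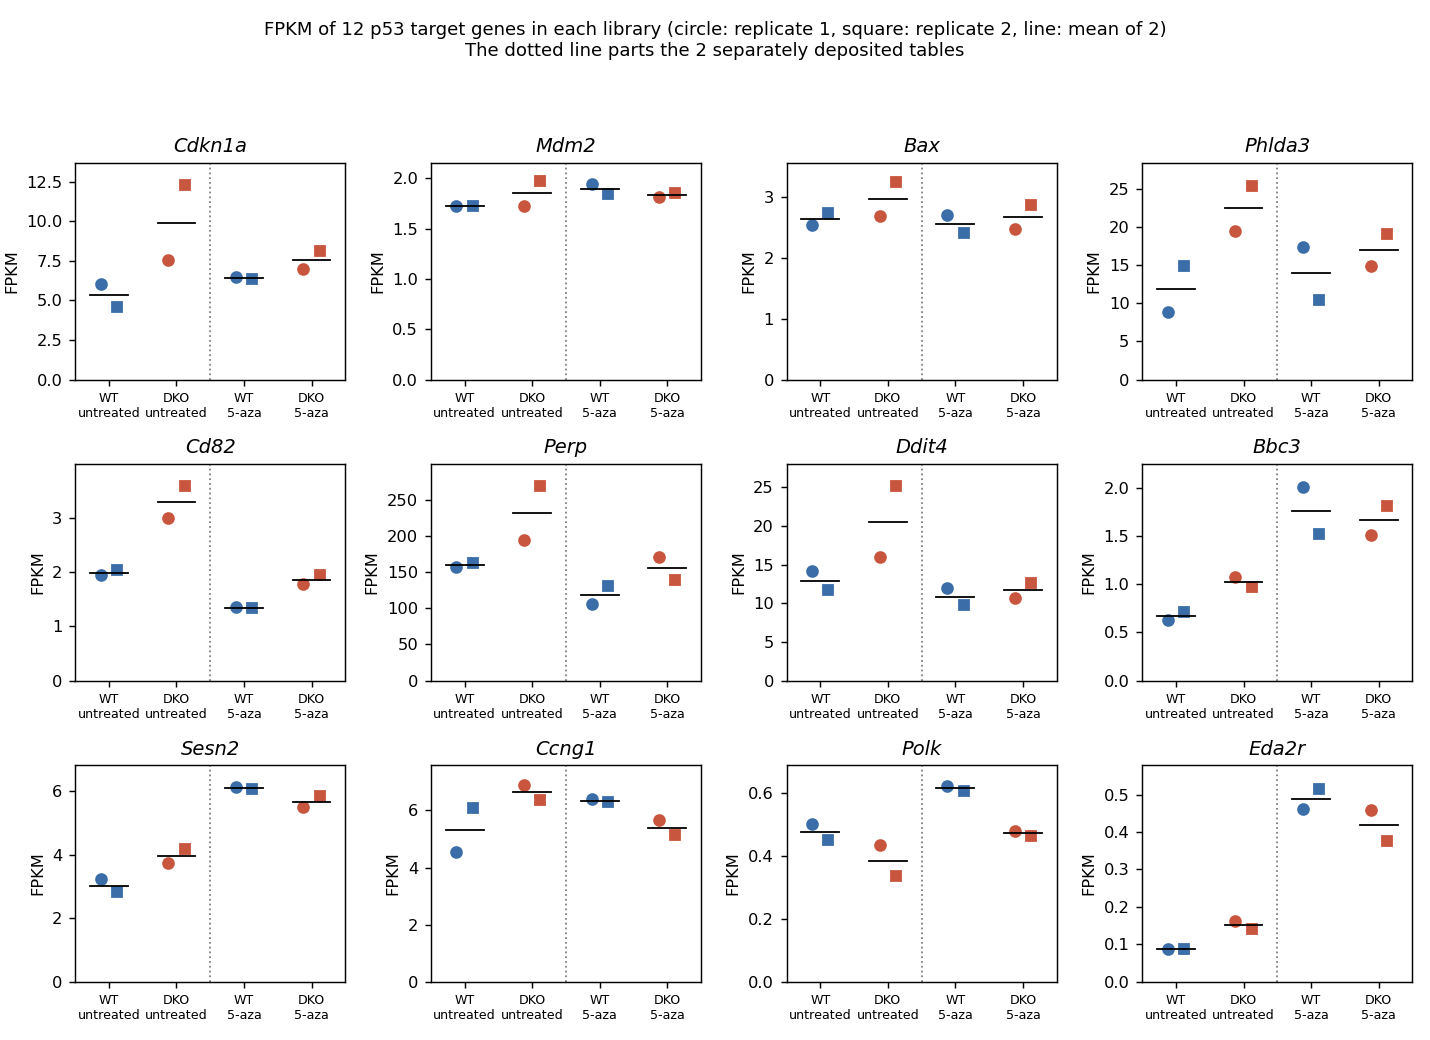
Deposited FPKM (vertical axes, linear, from 0) of 12 p53 target genes in each of the 8 libraries. Blue marks WT and red DKO, circles are replicate 1, squares replicate 2 and lines group means, and the dotted line parts the separately normalised tables. Cdkn1a, Phlda3, Cd82, Perp, Ddit4, Bbc3, Sesn2, Ccng1 and Eda2r show both untreated DKO libraries above both untreated WT libraries.

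Mdm2, the feedback inhibitor of p53, was nearly level. It measured 1.73 and 1.73 FPKM in WT and 1.72 and 1.98 in DKO, so the groups overlapped, and the log2 difference was 0.06 ± 0.09 (SE, limma adjusted p = 0.864). Among the genes of growth arrest, 6 of 7 differences were positive. Cdkn1a, which encodes p21, measured 6.06 and 4.61 FPKM in WT and 7.57 and 12.3 in DKO. The groups did not overlap, but the DKO libraries lay further apart than the lower of them lay from WT. Its mean was 1.86 times the WT mean, with a log2 difference of 0.76 ± 0.24 (limma adjusted p = 0.374), falling to 0.45 without DKO replicate 2. In the authors' deposited table Cdkn1a had an adjusted p of 0.779. A gene annotated on the opposite strand shares 273 exonic bases with Cdkn1a, and the strand setting of the counting is not given. Ccng1, which encodes the cyclin G1 that recruits a phosphatase to Mdm2, measured 4.55 and 6.09 FPKM in WT and 6.90 and 6.36 in DKO, also without overlap (log2 difference 0.28 ± 0.14, limma adjusted p = 0.537). The exception in direction was the polo-like kinase Plk2, with 7.15 and 6.49 FPKM in WT and 6.002 and 5.46 in DKO (limma adjusted p = 0.488). Btg2, Gadd45a, Gtse1 and Plk3 lay between 1.04 and 1.15 times WT.

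Among the 11 genes of cell death and survival, 9 differences were positive and 2 had an unadjusted p under 0.05. Phlda3 measured 8.91 and 14.9 FPKM in WT and 19.5 and 25.5 in DKO. Both DKO libraries were higher than both WT libraries, and the WT pair differed by as much as the DKO pair did. The DKO mean was 1.89 times WT, with a log2 difference of 0.89 ± 0.27 (limma adjusted p = 0.342), and Phlda3 rose in the authors' deposited table with an adjusted p of 0.00332. Perp measured 157 and 163 FPKM in WT and 194 and 269 in DKO, 1.45 times WT. The WT libraries were close together and DKO replicate 2 stood apart. Limma gave a log2 difference of 0.51 ± 0.28 (adjusted p = 0.570), and the authors' deposited table an adjusted p of 0.0385. Bbc3, which encodes the BH3-only protein PUMA, measured 0.625 and 0.712 FPKM in WT and 1.07 and 0.974 in DKO. The groups did not overlap, but they rested on only 51 and 58 reads in WT and 85 and 68 in DKO. The log2 difference of 0.28 ± 0.08 (limma adjusted p = 0.320) understates the ratio of 1.53 because 1 was added to these low values. In the authors' deposited table Bbc3 had an adjusted p of 0.999. Bax, the pore-forming effector, measured 2.53 and 2.73 FPKM in WT and 2.69 and 3.24 in DKO, with overlap (0.12 ± 0.11, limma adjusted p = 0.738). A neighbouring gene on the same strand shares 192 exonic bases with Bax. Pmaip1, Apaf1, Pidd1, Aen, Ei24, Trp53inp1 and Triap1 lay between 0.960 and 1.19 times WT.

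Of the receptors and surface proteins, Cd82, a tetraspanin known as a suppressor of metastasis, had the smallest unadjusted p of all members. It measured 1.95 and 2.03 FPKM in WT and 3.00 and 3.58 in DKO, 1.65 times WT. Both pairs were tight and far apart, with a log2 difference of 0.52 ± 0.11 (limma adjusted p = 0.227) and an adjusted p of 0.00866 in the authors' deposited table. Eda2r measured 0.0867 and 0.0869 FPKM in WT and 0.163 and 0.141 in DKO, 1.75 times WT and without overlap (0.08 ± 0.04, limma adjusted p = 0.476). As for Bbc3, the 1 added to these low values makes the log2 difference understate that ratio. Eda2r is X-linked, and each genotype held 1 library with high and 1 with low Xist. Gdf15 measured 0.120 and 0.0150 FPKM in WT and 0.0925 and 0.105 in DKO. Fas and Tnfrsf10b, which encode death receptors, lay at 1.09 and 1.02 times WT.

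Repair and nucleotide genes showed no common direction, with 2 of 4 differences positive. Polk, a translesion DNA polymerase, measured 0.500 and 0.451 FPKM in WT and 0.434 and 0.335 in DKO (limma adjusted p = 0.654). Rrm2b, the p53-inducible subunit of ribonucleotide reductase, measured 0.727 and 0.501 FPKM in WT and 0.446 and 0.503 in DKO (limma adjusted p = 0.660). WT replicate 1 set most of that gap. The damage recognition genes Xpc and Ddb2 lay at 1.00 and 1.05 times WT. All 4 genes of stress, mTOR control and autophagy were positive. Sesn2, a sestrin that restrains mTORC1, measured 3.22 and 2.81 FPKM in WT and 3.73 and 4.18 in DKO, without overlap (0.30 ± 0.10, limma adjusted p = 0.397). Ddit4 measured 14.1 and 11.7 FPKM in WT and 15.96 and 25.1 in DKO, 1.59 times WT, again with DKO replicate 2 far above the rest (0.60 ± 0.24, limma adjusted p = 0.447, and 0.192 in the authors' deposited table). Sesn1 and the lysosomal autophagy gene Dram1 both lay at 1.16 times WT, and the RNA-binding Zmat3 at 1.05 times.

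Other lists were read in the same untreated libraries. The summed level of the 17 genes of dissociation stress was 213 to 255 FPKM in WT and 253 to 289 in DKO, so the ranges overlapped. Of these genes 12 had a positive and 5 a negative difference, the latter including the immediate early genes Fos, Fosb and Egr1. At an unadjusted p under 0.05, 4 (Hspa1a, Hspa1b, Hspb1 and Jund) were higher in DKO, beside 6.72% of all genes. The 11 keratinocyte markers, a list of matrix genes that also holds the basal keratins Krt5 and Krt14, were all positive. Their sums were 551 to 703 FPKM in WT and 961 to 1060 in DKO. Most of each sum was Krt5 and Krt14. Krt5 was at 298 and 372 FPKM in WT and 544 and 578 in DKO, and Krt14 at 71.9 and 84.7 in WT and 175 and 209 in DKO. Cdh3, Dlx3, Msx2 and Shh overlapped between the genotypes. The 5 dermal papilla markers were all negative, with 93.5 to 124 FPKM in WT and 69.7 to 73.7 in DKO. Immune markers summed to 2.30 to 3.56 FPKM in WT and 6.998 to 8.52 in DKO. Most of each sum was Cd74, at 1.41 and 2.10 FPKM in WT and 5.12 and 6.86 in DKO, while Ptprc, Tyrobp and Lyz2 overlapped. The part of these lists in the p53 target values was not tested.

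**Figure D2:**
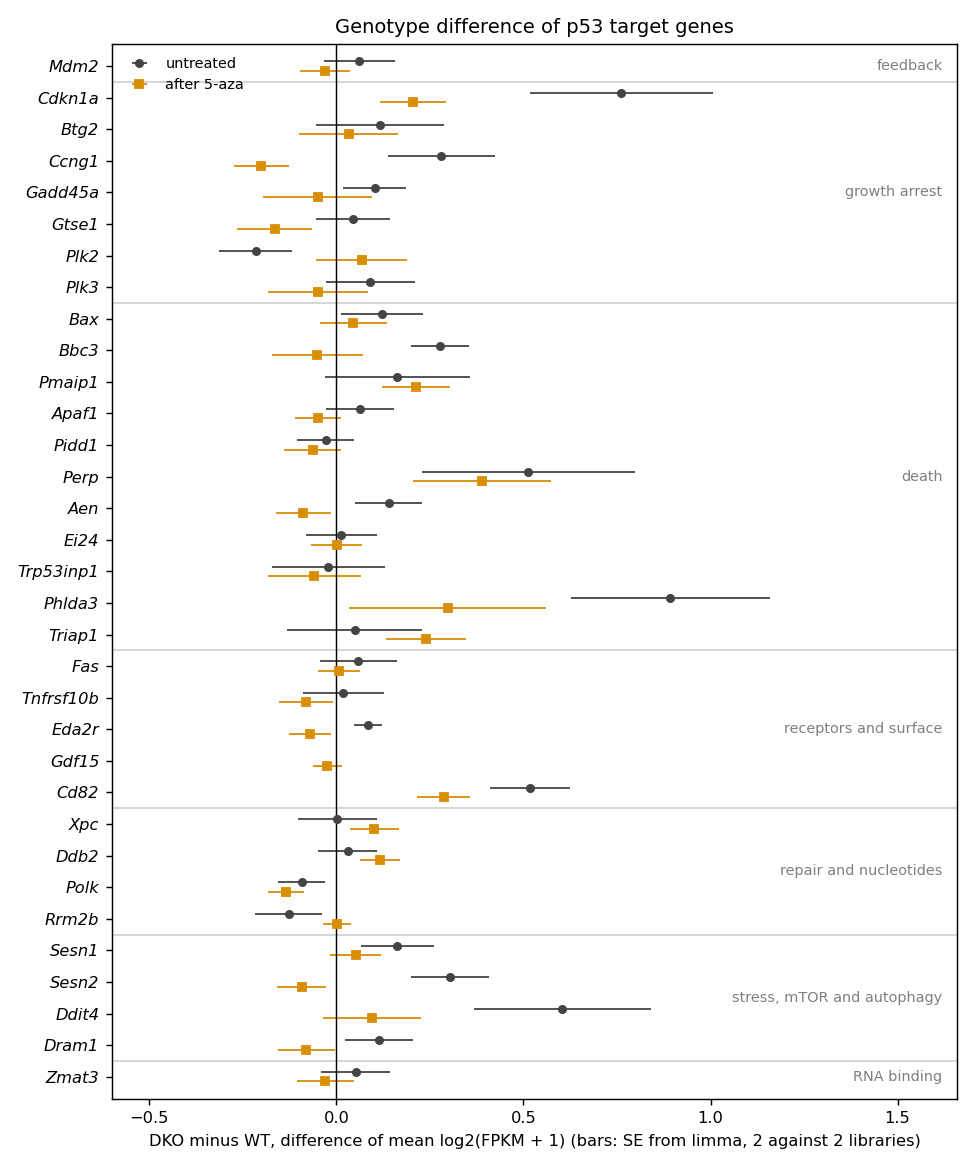
DKO minus WT difference in mean log2(FPKM + 1) (horizontal axis) for each p53 target, grouped by role, in untreated libraries (dark circles) and after 5-aza (orange squares), with bars of 1 SE from limma on 2 against 2 libraries. Most dark circles lie right of 0, while the orange squares fall on both sides (27 of 32 against 16 of 33 positive). Gdf15 has no untreated value because too few reads were counted.

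After 5-aza the members showed no common direction between the genotypes. The log2 difference was positive for 16 of 33 members and the median was -0.02, beside 62.8% of all 16856 genes tested and a median of 0.03. With other scalings of the libraries fewer members were positive, 11 with median-ratio factors and 9 with reads in listed genes, and the share of all genes fell likewise to 48.8% and 43.9%. No member passed the adjusted threshold of limma, nor did any gene of the table (0%), while 1120 genes were higher and 387 lower at an unadjusted p under 0.05. At that unadjusted level 1 member was higher in DKO (Cd82), beside 6.64% of all genes, and 2 were lower (Ccng1 and Polk), beside 2.3%. Both DKO libraries lay above both WT libraries for 8 members (Cdkn1a, Pmaip1, Perp, Triap1, Cd82, Xpc, Ddb2 and Sesn1), beside 28% of all genes, and below both for 7 (Ccng1, Apaf1, Aen, Tnfrsf10b, Eda2r, Polk and Sesn2), beside 11.6%. The authors' deposited table called 0 members higher, beside 0.547% of its 29246 listed genes, and 0 lower, beside 0.161%. Leaving out any 1 of the 4 libraries gave 0 to 2 members higher and 0 to 1 lower at the unadjusted level, with 0 of both without WT replicate 2. Without WT replicate 1 or without DKO replicate 1 the median turned positive, at 0.04 and 0.02.

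Cd82 kept the same order of groups as in untreated cells. It measured 1.35 and 1.33 FPKM in WT and 1.77 and 1.94 in DKO, 1.39 times WT and without overlap (0.29 ± 0.07, limma adjusted p = 0.436). In the authors' deposited table its adjusted p was 0.544. Perp measured 106 and 131 FPKM in WT and 171 and 140 in DKO, 1.31 times WT, also without overlap (0.39 ± 0.18, limma adjusted p = 0.632). Cdkn1a measured 6.46 and 6.37 FPKM in WT and 7.01 and 8.11 in DKO. That was 1.18 times WT, and both DKO libraries were again higher (0.20 ± 0.09, limma adjusted p = 0.607). Phlda3 measured 17.3 and 10.5 FPKM in WT and 14.9 and 19.1 in DKO, now with overlapping groups (0.30 ± 0.26, limma adjusted p = 0.798). Ddit4 overlapped as well, with 12.0 and 9.79 FPKM in WT and 10.7 and 12.6 in DKO (0.09 ± 0.13, limma adjusted p = 0.879).

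Ccng1 and Polk were the 2 members lower in DKO at an unadjusted p under 0.05, among 17 with a negative difference. Ccng1 measured 6.41 and 6.28 FPKM in WT and 5.67 and 5.12 in DKO, 0.851 times WT, the opposite order to untreated cells (-0.20 ± 0.07, limma adjusted p = 0.555). Polk measured 0.621 and 0.606 FPKM in WT and 0.480 and 0.461 in DKO, 0.767 times WT, in the same order as in untreated cells. Both Polk pairs were tight, with a log2 difference of -0.13 ± 0.05 (limma adjusted p = 0.549) and an adjusted p of 0.434 in the authors' deposited table. Sesn2 measured 6.14 and 6.07 FPKM in WT and 5.49 and 5.84 in DKO, with DKO lower by a small step (-0.09 ± 0.07, limma adjusted p = 0.750). Eda2r measured 0.462 and 0.514 FPKM in WT and 0.460 and 0.375 in DKO, where the higher DKO library all but touched the lower WT one (limma adjusted p = 0.772). Xist was at 16.9 and 23.1 FPKM in these WT libraries and at 4.60 and 3.65 in the DKO libraries, and its part in the X-linked Eda2r values was not tested.

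The central members Mdm2, Bax and Bbc3 did not separate the genotypes after 5-aza. Mdm2 measured 1.94 and 1.84 FPKM in WT and 1.81 and 1.86 in DKO (-0.03 ± 0.07, limma adjusted p = 0.931). Bax measured 2.69 and 2.40 FPKM in WT and 2.46 and 2.86 in DKO (0.05 ± 0.09, limma adjusted p = 0.924). Bbc3 measured 2.01 and 1.52 FPKM in WT and 1.51 and 1.82 in DKO (-0.05 ± 0.12, limma adjusted p = 0.937). In Mdm2 and Bax the groups overlapped, and in Bbc3 the lower library of each genotype stood at nearly the same level. Rrm2b was at 0.323 and 0.315 FPKM in WT and 0.321 and 0.319 in DKO, the tightest set of values among the members named here. Gdf15 was at 0.0871 and 0.112 FPKM in WT and 0.0520 and 0.112 in DKO. By role, positive differences numbered 3 of 7 for growth arrest, 6 of 11 for death and survival, 2 of 5 for receptors and surface, 3 of 4 for repair and nucleotides and 2 of 4 for stress, mTOR and autophagy. Melanocyte markers summed to 92.6 and 19.5 FPKM in the WT and 26.4 and 133 in the DKO libraries, so they varied more within than between genotypes.

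The interaction fit asked whether the genotype difference itself was unlike in the 2 tables. It was lower after 5-aza for 27 of 33 members, with a median of -0.10, beside a median of 0.02 and 55.6% positive differences over all 18505 genes. No member passed the adjusted threshold, which 0.027% of all genes passed. At an unadjusted p under 0.05, 0 members were higher after 5-aza, beside 3.05% of all genes, and 3 were lower, beside 3.04%. Sesn2 had -0.40 ± 0.11 (limma adjusted p = 0.660), Ccng1 -0.48 ± 0.17 (adjusted p = 0.770) and Eda2r -0.15 ± 0.06 (adjusted p = 0.808). For these genes both DKO libraries lay above both WT libraries in untreated cells and below both after 5-aza. On this scale Cdkn1a, at -0.56 ± 0.30 (limma adjusted p = 0.888), and Phlda3, at -0.59 ± 0.44 (adjusted p = 0.929), had larger differences with wider errors. The value of Eda2r depends on the 1 added to its low levels, and with 0.1 added it was -0.62 (limma adjusted p = 0.937). Without DKO 5-aza replicate 2, the count of 3 became 1. Since table and treatment coincide, this comparison cannot separate 5-aza from what else differed between the tables.

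Set beside untreated cells with no test, the members stood relatively higher after 5-aza. The tables were normalised separately, and the kits named in the labels are not tied to a group. Listed genes held a smaller share of the library totals after 5-aza, as given above, and what the other reads were is not known. FPKM were therefore rescaled to an equal sum over the shared genes. On that scale the mean of the 4 libraries after 5-aza was above that of the 4 untreated libraries for 25 of 33 members, with a median log2 ratio of 0.43, beside -0.06 for all genes and -0.05 for protein-coding genes. The median was 0.53 in WT and 0.28 in DKO. All 4 libraries after 5-aza lay above all 4 untreated libraries for 16 members, beside 20.2% of all genes and 22.1% of protein-coding genes, and below for 3 (Ei24, Btg2 and Dram1), beside 27% and 26.3%. On the deposited FPKM the direction flipped, with a median of -0.15 for members and -0.63 for all genes, 4 members above, beside 4.27% of genes, and 12 below, beside 60.4%. So the members' own direction depends on the scale, and their median stood above that of all genes on both. Bbc3, Sesn2, Tnfrsf10b and Eda2r were the 4 above on either scale.

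Eda2r differed most between the tables. On the rescaled values it stood at 1.02 and 0.909 in WT untreated, 1.70 and 1.46 in DKO untreated, 7.37 and 8.54 in WT after 5-aza and 6.91 and 5.96 in DKO after 5-aza. The ratio of means was 8.26 in WT and 4.07 in DKO, with every library after 5-aza above every untreated one. Bbc3 stood at 7.34 and 7.45 in WT untreated, 11.1 and 10.1 in DKO untreated, 32.1 and 25.3 in WT after 5-aza and 22.7 and 28.8 in DKO after 5-aza, ratios of 3.88 and 2.43. For Sesn2 the ratios were 2.96 in WT and 2.13 in DKO, and for Tnfrsf10b, which encodes the murine TRAIL death receptor, 2.14 and 1.90. These 4 genes act at different points, as 2 receptors of the tumour necrosis factor family, a BH3-only protein and a sestrin. Polk, Trp53inp1, Gdf15, Zmat3, Aen and Mdm2 followed with ratios over both genotypes of 1.86, 1.84, 1.60, 1.59, 1.59 and 1.54, that of Gdf15 resting on few reads. Mdm2 and Bax, at 1.38, were above in every library, whereas Cdkn1a, at 1.75 in WT and 1.14 in DKO, and Phlda3, at 1.73 and 1.13, overlapped between the tables. At the other end Dram1 had a ratio of 0.528 in WT and 0.374 in DKO, and Btg2, an antiproliferative immediate early gene, 0.733 and 0.707. Markers of other cell types differed between the same tables. Their sums are in deposited FPKM, not rescaled, and on that scale the median log2 ratio of all genes was -0.63. Endothelial and mural markers summed to 30.8 to 74.3 FPKM untreated and 3.53 to 5.81 after 5-aza, and dermal papilla markers to 69.7 to 124 and 8.19 to 27.7. Fibroblast sums are given above. Melanocyte markers went to both sides, with 26.9 to 36.0 FPKM untreated and 19.5 to 133 after 5-aza. The part of these markers in the members' ratios was not tested.

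**Figure D3:**
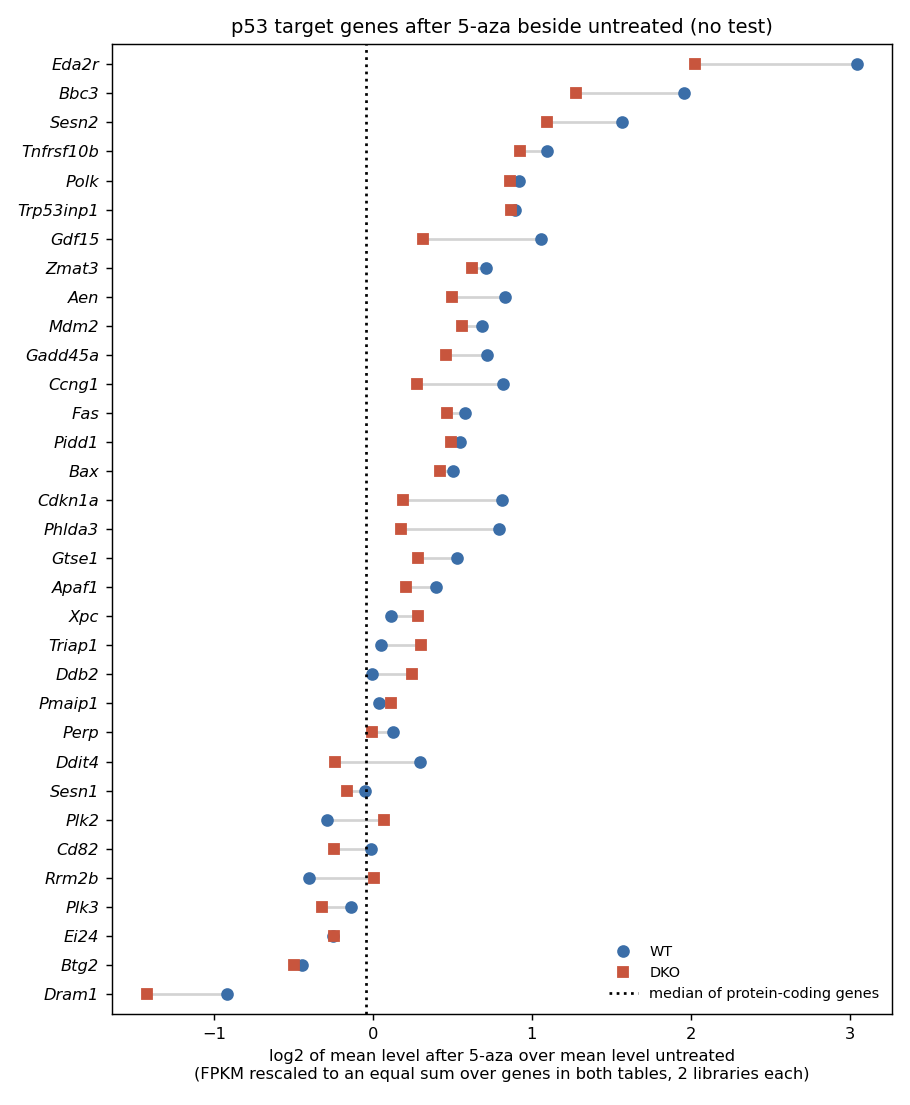
Log2 ratio of the mean level after 5-aza to the mean level untreated (horizontal axis) for each p53 target in WT (blue circles) and DKO (red squares), on FPKM rescaled to an equal sum over shared genes, with no test. Eda2r, Bbc3, Sesn2 and Tnfrsf10b lie furthest right and Dram1 furthest left, and the dotted line is the median of protein-coding genes, -0.05. On the deposited FPKM without rescaling the members' median is -0.15.

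Of the genes that act on p53 rather than under it, none passed an unadjusted p under 0.05 in any of the 3 limma fits (17 of 18 regulators tested). Differences were positive for 10 untreated and 12 after 5-aza, beside 53.8% and 62.8% of all genes. Both DKO libraries lay above both WT libraries for 4 of the 18 untreated and 3 after 5-aza, beside 24.1% and 28% of all genes. They lay below both for 2 and 2, beside 19.3% and 11.6%. Trp53 itself measured 8.37 and 10.9 FPKM in WT and 9.92 and 10.1 in DKO untreated (0.06 ± 0.14, limma adjusted p = 0.918). After 5-aza it measured 7.38 and 6.90 in WT and 7.41 and 6.71 in DKO (-0.02 ± 0.08, limma adjusted p = 0.972). The Trp53 groups overlapped in both tables. Trp63, the epithelial relative, measured 7.53 and 10.8 FPKM in WT and 9.12 and 9.61 in DKO untreated, and 6.30 and 7.08 in WT and 8.98 and 7.33 in DKO after 5-aza (limma adjusted p = 0.638). Mdm4, the partner of Mdm2, measured 4.83 and 4.85 FPKM in WT and 5.10 and 5.03 in DKO untreated, and 3.31 and 3.65 in WT and 3.64 and 3.57 in DKO after 5-aza. Cdkn2a, which encodes an inhibitor of Mdm2, was listed at 0 in both untreated WT libraries. RNA level does not report the protein level or activity of p53, which is regulated chiefly through protein stability.

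The integrated stress response, which induces Sesn2 and Ddit4 through Atf4 independently of p53, was read from 10 further genes. In untreated cells 1 of them was higher in DKO (Trib3, 0.22 ± 0.06, limma adjusted p = 0.332) and 1 lower (Atf5, -0.35 ± 0.12, adjusted p = 0.393) at an unadjusted p under 0.05, beside 6.72% and 4.73% of all genes. After 5-aza 0 of 10 were past that level in either direction. Their summed level was 49.6 to 57.6 FPKM in WT and 51.3 to 51.4 in DKO untreated, and 34.7 to 38.0 in WT and 36.0 to 37.0 in DKO after 5-aza. The ranges overlapped in both tables.

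**Figure D4:**
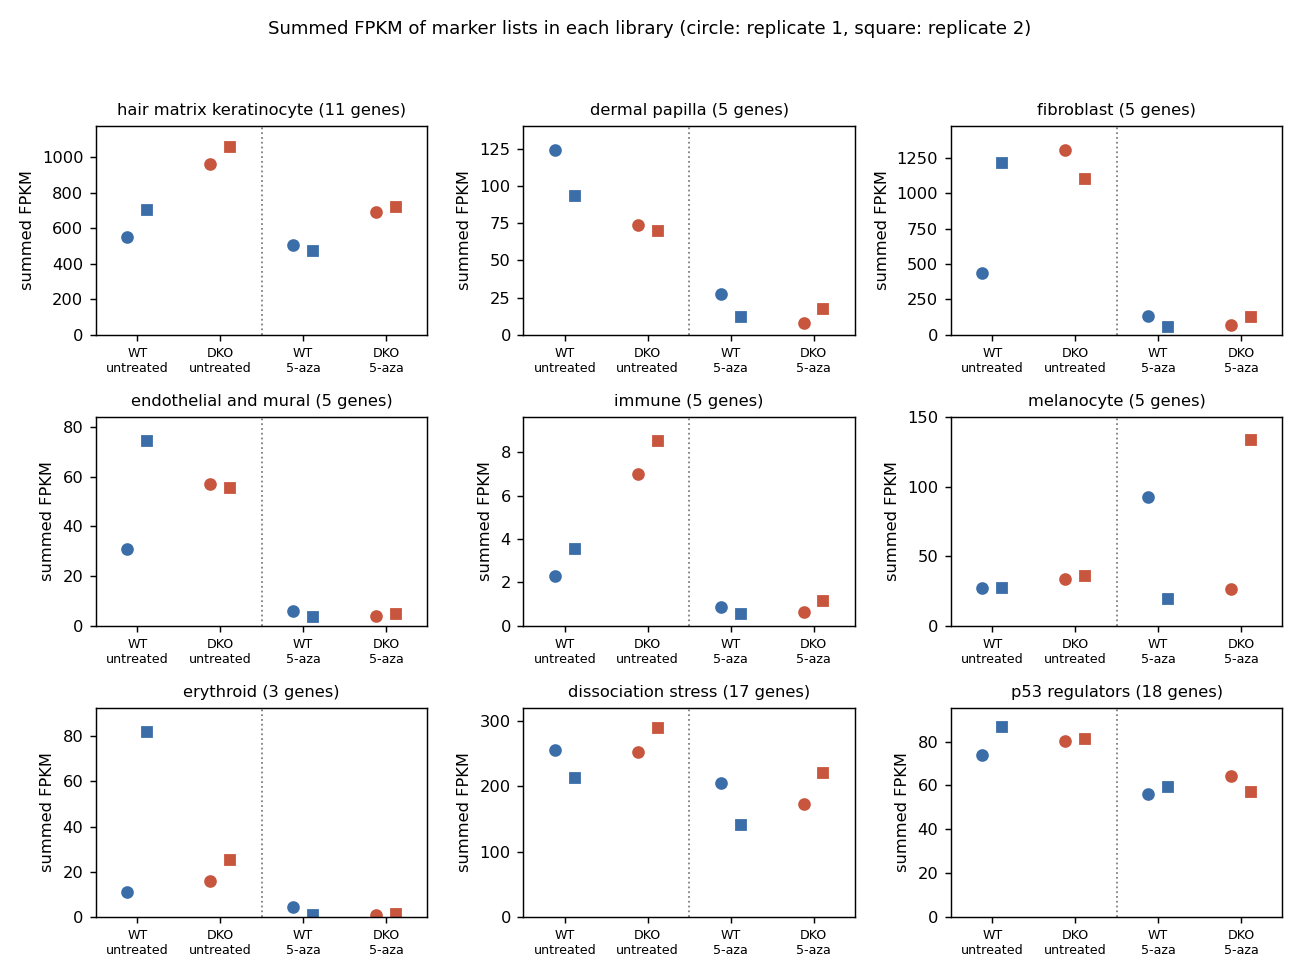
Summed FPKM (vertical axes, linear, from 0) of lists of marker genes in each library, with blue for WT, red for DKO, circles for replicate 1 and squares for replicate 2. Sums in the hair matrix keratinocyte panel are higher in DKO in both tables. That panel includes the basal keratins Krt5 and Krt14, and Krt5 is the largest part of each sum. Dermal papilla sums are lower in untreated DKO, and fibroblast, endothelial and erythroid sums are low after 5-aza. The sums of p53 regulators overlap between genotypes within each table.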

How the data were processed

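RNA sequencing values of 8 libraries (4 groups of 2) were used. Tools named in the submitters' processing notes were Trim Galore, STAR, HTSeq and DESeq2, and builds GRCm38 and mm10, all without a version. The library columns deposited by the authors hold FPKM, a unit inferred from the values, since value times length gave whole reads for every gene. The authors' deposited signal column is a mean of reads scaled by library. The authors' deposited log2 fold changes and errors are given as WT over DKO, according to the headers, and are printed here with the sign turned to DKO over WT. The deposited score is the authors' test statistic, and the deposited p-value columns hold their p and adjusted p. The deposited length column (unit other) was checked against GENCODE M21.

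Limma (version 3.58.1, R 4.3.3) was fitted to log2(FPKM + 1) of each table, using a trended variance. Genes needed 10 reads at the median library size in 2 libraries and 15 reads in all. Two-sided p-values received the Benjamini-Hochberg adjustment over all genes tested and were read at 0.05. The interaction was fitted over all 8 libraries. The fit was also run on simulated reads, in which only genes changed by design differed between genotypes. Those reads held no sex or cell type differences between libraries, so that run does not measure the error rate in these data. Because the tables were normalised separately, 5-aza was not tested against untreated.

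The members and lists were chosen with earlier results of these data known. Values in every library are given for Cdkn1a, Mdm2 and Bax, for members with an unadjusted p under 0.05 in any fit or an adjusted p under 0.05 in the authors' tables, and for the 3 highest and 3 lowest by mean FPKM. Plk2, Tnfrsf10b, Dram1 and Btg2 in the report, and Aen in the closing section, were named after their values were seen. Alternatives changed the constant, filter, trend, scaling, test, pairing, samples and length. Gene coordinates of the members matched GENCODE M21, other than those of Pmaip1 and Fas.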

Additional observations from a re-analysis of the deposited data

Results flagged for a closer look

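In 4 members the genotypes took opposite orders in the 2 tables: both DKO libraries lay above both WT libraries in untreated cells and below both after 5-aza. Of all 18505 genes 1.57% showed that reversal, and 2.51% showed the opposite one, which 0 members did. The change in the log2(FPKM + 1) difference, 5-aza minus untreated, was -0.48 for Ccng1, -0.40 for Sesn2, -0.23 for Aen, an exonuclease gene, and -0.15 for Eda2r. With 0.1 added in place of 1, the change for the low Eda2r was -0.62. Aen measured 1.66 and 1.84 FPKM in WT and 2.02 and 2.04 in DKO untreated, and 2.13 and 2.09 in WT and 2.05 and 1.82 in DKO after 5-aza. The limma interaction did not pass for any of them, with adjusted p = 0.770 for Ccng1, 0.660 for Sesn2, 0.843 for Aen and 0.808 for Eda2r. Ccng1 rested on 448 to 1302 reads a library, Sesn2 on 222 to 1180, Aen on 603 to 1680 and Eda2r on 18 to 214. Groups of 2 libraries allow no test for a library that stands apart.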

How the results depend on the processing

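No member passed the adjusted threshold in any of the 3 fits under any alternative run. All 180 values under alternatives kept their direction, for the members named for a small p in a fit and for Perp in untreated cells. Over all members, 427 of 448 values kept it untreated, 456 of 494 after 5-aza and 534 of 558 in the interaction. In untreated cells the median difference of the members was 0.14 with voom on recovered reads. After 5-aza it was -0.0396 with a constant of 0.1, -0.0145 with a filter of 0.1 FPKM, -0.0542 with median-ratio scaling, -0.0731 with scaling to reads in listed genes, -0.0425 with voom and -0.0335 per exonic length, a setting chosen after seeing the data. At an unadjusted p under 0.05 after 5-aza, members with a negative difference numbered 1 with a constant of 0.1, 1 with no filter, 0 with a filter of 0.1 FPKM and 1 with all 8 libraries in 1 fit, and voom gave 2 with a positive difference. The median of levels after 5-aza beside untreated was -0.15 on the deposited FPKM. The cause of these shifts was not tested.

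Leaving out 1 library at a time, members at an unadjusted p under 0.05 ranged from 2 to 5 positive and 0 to 1 negative in untreated cells, with medians of 0.0480 to 0.148. The lowest, 2 and 0.0480, came without DKO replicate 2. After 5-aza they ranged from 0 to 2 positive and 0 to 1 negative, with medians of -0.0369 to 0.0351. In the interaction they ranged from 0 to 1 positive and 1 to 4 negative, with medians of -0.157 to -0.0592. The median of levels after 5-aza beside untreated ranged from 0.33 to 0.51. A lone library left in a group was assumed to vary like the other group.

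Deviations of same-numbered libraries correlated at 0.03 in untreated cells and -0.59 after 5-aza, so the number was not taken to pair them. In untreated cells same-numbered libraries were nonetheless alike in Xist and Ddx3y across genotypes, so there the block also holds sex. With the number as a replicate block, members at an unadjusted p under 0.05 were 4 positive in untreated cells, 0 negative and 1 positive after 5-aza, and 1 negative in the interaction. With the crossed pairing, chosen after seeing the data, 6 were positive and 3 negative after 5-aza, beside 12.4% and 5.93% of all genes.

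Calls over all genes varied more than calls of members. In untreated cells 0 genes were higher and 1 lower at an adjusted p under 0.05, against 100 and 47 with voom, 97 and 32 with all 8 libraries, 27 and 10 per exonic length, 12 and 1 with the replicate block, and 5 and 3 with a constant of 0.1. After 5-aza the 0 calls became 57 higher and 34 lower with the crossed pairing. The interaction called 1 higher and 4 lower, against 7 and 1 without WT untreated replicate 2. Pairs of libraries and low read numbers, as for Gdf15, limit what could be told apart.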
